A study of Mus musculus with 24 samples.

Results

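Lineage-balanced barcodes were DNA barcodes that were read in every sorted cell population of a recipient mouse and lay at similar levels in the myeloid and the lymphoid cells of its blood. Share was a barcode's percentage of a sample's reads. The rule took, in each mouse, the barcodes with at least 0.01% of the reads of all 8 populations and at least 0.1% of at least 1 of them, whose mean of monocyte and neutrophil shares and mean of B and T cell shares differed by less than 4-fold. It found 53 barcodes, 21 in mouse 1, 20 in mouse 2 and 12 in mouse 3 (17.7 ± 4.93 per mouse, SD, n = 3). They were 53 of the 157 barcodes found in all 8 populations, of the 1064 that reached 0.1% in at least 1 population and of 327974 distinct sequences in the whole series. Of the other barcodes found in all 8 populations, 43 were myeloid-rich (4-fold or more higher in monocytes and neutrophils) and 61 lymphoid-rich (4-fold or more higher in B and T cells). Apart from the distinct sequences, these counts add up lists made in each mouse, so a sequence can be counted in several mice. The sequence named bc3l below was a member in mouse 3 and was counted as myeloid-rich in mouse 1 and mouse 2.

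The study sequenced barcodes integrated by a lentivirus in 24 samples of genomic DNA, 8 populations from each of 3 mice. Haematopoietic stem cells from the bone marrow of C57BL/6 mice (all samples are labelled C57BL/6J) were cultured, infected 5 days after plating with the barcode lentivirus pBC008, and sorted 4 days after infection as GFP+ cells with Sca1 and cKit but without lineage markers. Male recipients aged 5 weeks received 9 Gy of whole-body irradiation and then these cells, with CD45.2+ progenitors as rescue cells, and tissues were collected 2 months later. All groups shared this treatment, and no sample came from an untreated animal. The populations were renal M1 macrophages, cardiac Ccr2hi macrophages, cardiac Ccr2lo macrophages and renal M2 macrophages from the organs, with blood monocytes and neutrophils (myeloid) and blood B and T cells (lymphoid), each with 1 sample per mouse. The labels give neither the sort gates of these populations nor the number of cells sorted for each sample, and barcode DNA holds no marker genes by which a population's name could be checked. Samples held 6808221 to 15745444 reads, so that 0.01% stood for 681 to 1575 reads, and a barcode with 0 reads could have had a share of up to 4.41e-05%. These limits cover counting error only, because PCR reads without molecular identifiers are not independent molecules.

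A haematopoietic stem cell can give rise to all blood lineages. A lentiviral barcode is copied with the genome at each division, so cells with the same barcode descend from a founder, or founders, that carried it. A founder infected by several virus particles carries several barcodes. Neutrophils live for a short time and are replaced continually from the marrow, monocytes enter tissues and can become macrophages, and B and T cells can persist for long periods after they form. T cells mature in the thymus and B cells largely in the bone marrow. Ccr2 is the chemokine receptor that monocytes use to leave the marrow, and macrophages with little of it are regarded as resident cells that are replaced slowly. M1 and M2 are names for inflammatory and reparative macrophage states. A barcode carried by cells of every lineage marks a founder, or founders, with output in each. Being read at 0.01% in every population does not by itself show this. Of 848 shares of the barcodes described here in mice other than their own, 112 were at 0.01% or more.

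The barcodes on which the results turn are given here with the names used below, the mouse number followed by a letter in order of mean share over the 8 populations. All are 52 bases long and alternate G or C with A or T, and a capital letter marks a base off that alternation. In mouse 1 they were the 3 with the highest mean share (bc1a, bc1b, bc1c), those with extreme ratios between B and T cells, between the highest and lowest population, or between tissue macrophages and blood (bc1l, bc1m, bc1n, bc1r, bc1s), and a pair with nearly parallel levels (bc1g, bc1i) chosen after its values were seen.
bc1a: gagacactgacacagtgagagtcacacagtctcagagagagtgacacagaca
bc1b: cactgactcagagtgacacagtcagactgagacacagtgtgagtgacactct
bc1c: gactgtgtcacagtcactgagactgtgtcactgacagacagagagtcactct
bc1g: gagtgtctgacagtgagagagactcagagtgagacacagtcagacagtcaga
bc1i: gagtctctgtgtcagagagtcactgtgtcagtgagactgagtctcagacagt
bc1l: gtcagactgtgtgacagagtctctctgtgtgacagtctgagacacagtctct
bc1m: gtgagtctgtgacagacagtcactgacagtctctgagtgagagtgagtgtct
bc1n: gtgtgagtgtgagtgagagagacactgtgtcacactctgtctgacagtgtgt
bc1r: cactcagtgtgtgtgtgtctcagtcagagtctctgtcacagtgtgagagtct
bc1s: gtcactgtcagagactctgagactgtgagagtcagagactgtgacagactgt

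In mouse 2 the sequences were chosen in the same way, with bc2d and bc2e added after their values were seen because their levels ran parallel to those of bc2c.
bc2a: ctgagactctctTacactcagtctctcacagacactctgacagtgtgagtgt
bc2b: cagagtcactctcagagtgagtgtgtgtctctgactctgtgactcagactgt
bc2c: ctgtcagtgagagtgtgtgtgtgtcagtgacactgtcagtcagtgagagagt
bc2d: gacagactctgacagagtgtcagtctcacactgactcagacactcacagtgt
bc2e: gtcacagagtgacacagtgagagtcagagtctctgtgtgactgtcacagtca
bc2l: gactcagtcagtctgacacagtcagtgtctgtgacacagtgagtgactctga
bc2q: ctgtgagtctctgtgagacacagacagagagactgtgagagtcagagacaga
bc2t: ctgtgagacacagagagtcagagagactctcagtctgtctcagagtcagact

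In mouse 3 the same choices gave 6 sequences.
bc3a: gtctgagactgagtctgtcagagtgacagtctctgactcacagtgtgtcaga
bc3b: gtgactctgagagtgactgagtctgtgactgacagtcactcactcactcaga
bc3c: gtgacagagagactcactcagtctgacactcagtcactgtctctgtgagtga
bc3e: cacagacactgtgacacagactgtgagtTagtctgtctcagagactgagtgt
bc3h: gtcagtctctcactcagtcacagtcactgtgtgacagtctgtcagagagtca
bc3l: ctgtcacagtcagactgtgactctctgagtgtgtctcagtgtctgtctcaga

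The lineage-balanced barcodes held more of the reads of blood myeloid cells and renal M1 macrophages than of the other macrophages, as did all barcodes found in the 8 populations together. Their summed share was 38.8%, 50.8% and 35.3% of the reads of M1 macrophages in mice 1, 2 and 3. In Ccr2hi macrophages the sums were 12.3%, 25.1% and 12.0%, in Ccr2lo macrophages 10.0%, 19.8% and 7.73%, and in M2 macrophages 14.6%, 25.3% and 11.3%. Mouse 2 was highest and the M1 sample stood above the 3 other macrophage samples in each mouse. In monocytes the sums were 38.4%, 51.9% and 33.4% and in neutrophils 38.0%, 52.4% and 33.5%. In B cells they were 35.0%, 40.5% and 24.3%, and in T cells 16.6%, 35.0% and 15.7%, below the B cells of each mouse. The averages were 41.6% ± 8.13 for M1, 16.5% ± 7.47 for Ccr2hi, 12.5% ± 6.44 for Ccr2lo, 17.1% ± 7.30 for M2 macrophages, and 41.2% ± 9.56 in monocytes, 41.3% ± 9.86 in neutrophils, 33.2% ± 8.25 in B cells and 22.4% ± 10.9 in T cells (SD, n = 3 mice each). All 157 barcodes found in the 8 populations held 92.9% of M1, 35.9% of Ccr2hi, 28.2% of Ccr2lo and 33.9% of M2 reads on average. Of the reads that these 157 held, the lineage-balanced ones took a similar part in each macrophage population, 44.8% ± 8.27 in M1, 44.8% ± 9.31 in Ccr2hi, 43.0% ± 10.1 in Ccr2lo and 49.0% ± 11.3 in M2. The part was 45.2% ± 10.0 in monocytes, 44.6% ± 10.2 in neutrophils, 54.8% ± 12.3 in B cells and 30.7% ± 13.8 in T cells (SD, n = 3 mice each).

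No p-value is given for these sums or for any ratio below, because the barcodes were chosen on these samples and each barcode has 1 sample per population, with no replicate.

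The sums came from few barcodes. Of the 53, 34 reached 1% of reads in at least 1 population, 27 in at least 4 and 7 in all 8, namely bc1c and bc1d, bc2a and bc2e, and bc3a, bc3b and bc3c. Members took 16 of the 30 places among the 10 most abundant barcodes of the M1 samples, 15 of 30 in Ccr2hi, 12 of 30 in Ccr2lo and 15 of 30 in M2 macrophages. They took 16 of 30 in monocytes, 15 of 30 in neutrophils and 18 of 30 in B cells, but 7 of 30 in T cells. A member was the most abundant barcode in 2 of 3 Ccr2hi samples, in 1 of 3 Ccr2lo, M2, B cell and T cell samples each, and in 0 of 3 M1, monocyte and neutrophil samples.

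The members spanned a wide range of levels. Their shares ran from 0.0127% to 10.5% in M1 (median 1.16%), 0.0438% to 6.05% in Ccr2hi (0.692%), 0.0288% to 4.31% in Ccr2lo (0.567%) and 0.0229% to 7.79% in M2 macrophages (0.657%). In blood they ran from 0.0136% to 10.0% in monocytes (median 1.08%), 0.0112% to 10.4% in neutrophils (1.02%), 0.0364% to 8.41% in B cells (1.36%) and 0.0110% to 9.51% in T cells (0.642%). The lowest of a member's 8 shares was 0.1% or more in 34 of 53 and under 0.02% in 6. The myeloid mean was above the lymphoid mean in 34 members and below it in 19, and the means were within 2-fold in 27, all as bounded by the rule.

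Balance between the lineages did not mean an even level over the 8 populations. The ratio of a member's highest to its lowest share had a median of 8.60 and ran from 2.42 to 55.8. It was under 4 in 5 members (bc1m, bc2a, bc2h, bc2i, bc2k) and 10 or more in 22. The lowest share lay in Ccr2lo macrophages in 22 of 53 members, in T cells in 13 and in M1 macrophages in 6. The highest share lay in B cells in 14, in M1 macrophages in 9, in T cells in 9 and in neutrophils in 8. None of these counts was made over other barcodes, so none is read as particular to the members. All 157 barcodes found in the 8 populations also held their lowest mean summed share in Ccr2lo macrophages, at 28.2%. Within blood, with 0.01% added to each share, the ratio of the highest to the lowest of the 4 populations was under 4 in 14 of 53 members, against 42.6% of the 1064 barcodes that reached 0.1% in their mouse. Among Ccr2hi, Ccr2lo and M2 macrophages, 3 populations from 2 organs, it was under 4 in 52 of 53, against 88.1%. The same held in 37 of 43 myeloid-rich and 61 of 61 lymphoid-rich barcodes. The rule required presence in all of these samples, so nothing is read from the distance to those shares.

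The most even member was bc2a of mouse 2, which was also its most abundant. It held 10.4% of M1 (95% Wilson interval 10.4048% to 10.4382%), 6.05% of Ccr2hi, 4.31% of Ccr2lo and 7.79% of M2 macrophage reads, and its levels in blood were 10.0% in monocytes, 10.4% in neutrophils, 5.60% in B cells and 9.51% in T cells. Its highest share was 2.42 times its lowest. Its counting intervals were far narrower than that difference, but they cover counting error only and not the spread between samples. The next in that mouse, bc2b, held 7.42% of M1, 3.29% of Ccr2hi, 2.19% of Ccr2lo, 1.74% of M2, 7.19% of monocyte and 7.76% of neutrophil reads. In lymphocytes bc2b was at 0.599% in B cells and 3.46% in T cells. The levels of bc2c ran the other way in the lymphocytes, at 5.77% in B cells and 1.31% in T cells, beside 3.76% in monocytes. Thus all 3 leaders of mouse 2 were high in myeloid cells, and they differed in which lymphocyte carried more of the barcode.

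In mouse 1, bc1a held 9.61% of M1, 8.11% of monocyte and 9.49% of neutrophil reads. It had 4.79% in B cells but 0.403% in T cells. In the tissues it had 0.791% of Ccr2hi, 0.527% of Ccr2lo and 1.11% of M2 reads, so that its level in M1 stood apart from those 3. The levels of bc1b were 7.02% in M1, 1.39% in Ccr2hi, 0.992% in Ccr2lo, 2.22% in M2, 8.54% in monocytes, 8.39% in neutrophils, 3.34% in B cells and 1.86% in T cells. By contrast, bc1c leaned to the lymphocytes, at 3.59% in monocytes and 3.96% in neutrophils, against 8.41% in B cells and 6.32% in T cells. No barcode of that mouse had a higher B cell share. The most even member of mouse 1 was bc1m, whose shares lay between 0.248% in Ccr2lo macrophages and 0.965% in T cells.

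In mouse 3, bc3a held 10.5% of M1, 2.85% of Ccr2hi, 1.51% of Ccr2lo and 2.69% of M2 reads, with blood levels of 9.65% in monocytes, 10.0% in neutrophils, 8.25% in B cells and 2.46% in T cells. The second, bc3b, had the reverse order in the lymphocytes, at 3.42% in B cells and 5.79% in T cells, beside 8.56% in monocytes. The most even member there was bc3c, with 4.09% of M1, 2.53% of Ccr2hi, 1.55% of Ccr2lo and 1.97% of M2 reads. Its blood levels were 4.12% in monocytes, 4.10% in neutrophils, 6.24% in B cells and 2.78% in T cells. In each mouse the 3 leading members were thus at 0.4% or more in every population.

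B and T cells carried these barcodes at unequal levels. With 0.01% added to each share, as in all counts of folds below, 18 of 53 members were over 4-fold higher in B than in T cells, against 33.6% of the 1064 barcodes that reached 0.1% in their mouse. Another 6 were over 4-fold lower in B cells, against 9.3% (43% in either direction). Both counts lay near the share over all barcodes. Barcodes with few or no reads in both populations of a pair count as within 4-fold once 0.01% is added. This limits what the shares over all 1064 barcodes say, here and below. The median log2 ratio of B over T cells was 1.09 in mouse 1, -0.21 in mouse 2 and 1.15 in mouse 3, beside 0.56 over all 1064 barcodes, and the members of each mouse ranged from over 4-fold lower to over 4-fold higher. The rule used the mean of B and T cells, so a barcode high in either could pass.

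The most B cell-biased member was bc1l, at 1.40% in B cells and 0.0622% in T cells, a 22.5-fold difference, beside 0.861% in monocytes. In mouse 3 it was bc3e, at 1.51% and 0.0699% (21.6-fold), and in mouse 2 bc2l, at 2.02% and 0.139% (14.5-fold). All 3 of these were at similar levels in M1 macrophages, monocytes and neutrophils. The most T cell-biased were bc1r, at 0.0464% in B cells and 0.492% in T cells, bc3h, at 0.326% and 2.00%, and bc2b, described above. Across members, B and T cell shares had a Spearman rho of 0.423 in mouse 1 (n = 21), 0.468 in mouse 2 (n = 20) and 0.769 in mouse 3 (n = 12), the lowest mean (0.553) of the 28 pairs of populations. These are descriptions across barcodes that share libraries, and the points are not independent.

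Monocytes and neutrophils carried the members at nearly the same levels. Over 4-fold differences were seen in 1 of 53 members, bc1g, higher in monocytes, against 1.88% of all barcodes higher and 0.188% lower in monocytes (2.07% in either direction). Barcodes nearly absent from both populations count as near equal in these background shares. The count of 1 lay near the share over all barcodes, and 43 of 43 myeloid-rich and 59 of 61 lymphoid-rich barcodes were also within 4-fold. Near equality of the 2 populations is therefore not particular to the members. Median log2 ratios of monocytes over neutrophils were 0.18, -0.01 and 0.23 in the 3 mice. With a limit of 2-fold, 6 members were higher in monocytes, against 13.1% of all barcodes, and 0 were higher in neutrophils, against 3.29%. The count of 6 lay near the share over all barcodes. By the same limit, 20 of 61 lymphoid-rich and 2 of 43 myeloid-rich barcodes were higher in monocytes. With nothing added, bc1s was also beyond 2-fold, at 0.495 times the neutrophil share. In those 6 members (bc1g, bc1i, bc1n, bc1q and bc1u of mouse 1 and bc2r of mouse 2), the monocyte share was 3.24 to 4.33 times the neutrophil share. M1 macrophages in these 6 were at 0.0712 to 0.431 times the monocyte level and at 0.302 to 1.499 times the neutrophil level. M2 macrophages were above monocytes in all 6, by 1.41 to 2.81 times. The ratios to monocytes share the monocyte value by which the 6 were picked.

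The values of bc1g show the pattern. It held 0.291% of M1, 1.85% of Ccr2hi, 1.48% of Ccr2lo and 1.35% of M2 reads, and in blood 0.958% of monocyte, 0.221% of neutrophil and 2.16% of B cell reads, with 0.413% in T cells. The most uneven member of mouse 1, bc1n, held 0.0133% of M1, 0.245% of Ccr2hi, 0.240% of Ccr2lo and 0.283% of M2 reads. It had 0.186% in monocytes, 0.0439% in neutrophils, 0.151% in B cells and 0.642% in T cells, so that M1 macrophages were its lowest population. The other 47 members had M1 levels of 0.0990 to 1.44 times the monocyte level (median 0.989), and M1 was under 0.5 times the monocyte level in 4 of them. Both groups were formed after the values were seen, and bc1g and bc1i have parallel levels, as given below.

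Renal M1 macrophages were near monocytes in most members. Of 53, 4 (bc1n, bc1q, bc1r, bc2t) were over 4-fold lower in M1 macrophages than in monocytes, against 5.55% of all barcodes, and 0 were over 4-fold higher, against 0.564% (6.11% in either direction). Both counts lay near the share over all barcodes, so nearness to monocytes is not particular to the members. M1 was also within 4-fold of monocytes in 43 of 43 myeloid-rich and 47 of 61 lymphoid-rich barcodes. Median log2 ratios of M1 over monocytes were -0.22, -0.11 and 0.00 in mice 1, 2 and 3. The mean Spearman rho of M1 with neutrophils across members was 0.946 and with monocytes 0.940. The member with the largest difference between populations, bc2t, was an exception, with 0.0127% of M1 (1637 reads, 95% Wilson interval 0.0121% to 0.0133%), 0.128% of monocyte and 0.0818% of neutrophil reads, and with 0.125% in B cells and 0.709% in T cells. Its M2 level was 0.308%.

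The macrophages named M1 and M2 came from kidneys of the same mice but carried the members at different levels. Over 4-fold differences were seen in 11 members higher and 7 lower in M1 than in M2 macrophages. Over all 1064 barcodes the shares were 5.08% higher and 67.6% lower (72.7% in either direction). The rule kept out every barcode missing from M1 macrophages, so nothing is read from the distance to that background. The median log2 ratio of M1 over M2 was 0.60 in mouse 1, 1.12 in mouse 2 and 1.97 in mouse 3, and members in each mouse lay on either side of 0, from -3.89 to 3.10. Against monocytes, 2 members (bc1s, bc3h) were over 4-fold higher and 8 over 4-fold lower in M2 macrophages, where 59.9% of all barcodes were higher and 6.02% lower (65.9% in either direction). The rule asked for monocyte reads in every member, so nothing is read from the distance to those shares either. The median log2 ratio of M2 over monocytes was -0.81, -1.40 and -1.84 in the 3 mice.

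Cardiac macrophages were also below monocytes at the median member. Medians of the log2 ratio over monocytes were -1.12, -0.997 and -1.62 in Ccr2hi and -1.28, -1.57 and -2.42 in Ccr2lo macrophages of mice 1, 2 and 3. Of 53 members, 2 (bc1s, bc3h) were over 4-fold higher and 7 over 4-fold lower in Ccr2hi macrophages than in monocytes, against 62.8% and 4.98% of all barcodes (67.8% in either direction). In Ccr2lo macrophages 1 (bc1s) was over 4-fold higher and 16 were over 4-fold lower than in monocytes, against 64.9% and 6.39% (71.3% in either direction). These differences, too, are bounded by the rule, which asked for monocyte reads in every member.

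The Ccr2hi and Ccr2lo macrophages of the heart carried the members at close levels. In 52 of 53 the ratio lay within 4-fold, and the exception, bc3l, which was also read in the other mice, was over 4-fold lower in Ccr2hi, against 0.47% of all barcodes lower and 0.282% higher (0.752% in either direction). Ccr2hi was the higher of the pair in 44 of 53 members, 15 of 21, 18 of 20 and 11 of 12 in the 3 mice, where 476 of all 1064 barcodes were higher. It was also the higher in 35 of 43 myeloid-rich barcodes (median log2 ratio 0.32, against 0.28 in the 53 members) and in 37 of 61 lymphoid-rich ones. The rule asked for reads in every sample, so nothing is read from the distance to all 1064. Each mouse gives 1 pair of samples, and members with parallel levels are not independent, so these counts test no shift. The median log2 ratio of Ccr2hi over Ccr2lo was 0.21, 0.25 and 0.72, small beside the range from -2.14 to 1.03. Between organs, Ccr2lo macrophages of the heart were within 4-fold of renal M2 macrophages in 52 of 53 members. The exception was again bc3l, higher in Ccr2lo, where 4.04% of all barcodes were over 4-fold higher and 3.29% lower (7.33% in either direction). Nothing is read from the distance to those shares, for the same reason. Log2 ratios of Ccr2lo over M2 had medians of -0.47, -0.19 and -0.40.

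Ccr2lo macrophages and B cells differed more. Of 53 members, 2 (bc2n, bc3l) were over 4-fold higher and 14 over 4-fold lower in Ccr2lo macrophages than in B cells, against 42.4% and 12.7% of all barcodes (55.1% in either direction), and the median log2 ratio was -0.61, -0.86 and -1.36 in the 3 mice. The rule used the B cell share and asked for B cell reads in every member, so nothing is read from the distance to those shares. In bc2n, Ccr2lo macrophages had 0.743% and B cells 0.144%.

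A minority of the members were higher in tissue than in blood. The mean of Ccr2hi, Ccr2lo and M2 shares was above the mean of the 4 blood shares in 14 of 53, against 67.4% of the 1064 barcodes, 10 of 43 myeloid-rich and 11 of 61 lymphoid-rich ones. The rule used the blood and the tissue shares, and nothing is read from that distance. The ratio of the tissue mean to the blood mean reached 5.01, and it was under 0.25 in 5 (bc1a, bc1e, bc1l, bc1o, bc1p), all of mouse 1. The mean share over the 8 populations had a median of 0.274% in the 14, against 1.79% in the other 39, although bc1g and bc2m of the 14 reached 1.09% and 1.19%. The 14 included all 6 members with more than 2 times the share in monocytes as in neutrophils. In mouse 1 the highest ratio was in bc1s, with 0.266% of Ccr2hi, 0.327% of Ccr2lo and 0.1004% of M2 reads. Its blood levels were 0.0136% in monocytes, 0.0275% in neutrophils, 0.108% in B cells and 0.0349% in T cells. In mouse 2 it was in bc2q, with 0.692% of Ccr2hi, 0.684% of Ccr2lo and 0.547% of M2 reads. Its blood levels were 0.190%, 0.182%, 0.328% and 0.0257% in the same order. In mouse 3, bc3h was high in tissue and in T cells, with 0.198% in M1, and with 1.22% of Ccr2hi, 1.07% of Ccr2lo and 1.29% of M2 reads. In blood it had 0.287% in monocytes, 0.397% in neutrophils, 0.326% in B cells and 2.00% in T cells. The highest tissue ratio of that mouse, 2.51, belonged to bc3l, which is described last. At the other end, bc1l had 0.0542% of Ccr2hi, 0.109% of Ccr2lo and 0.124% of M2 reads, at 0.116 times its blood mean. Levels near 0.01% in blood are near the threshold for presence, which limits what they say of such members. The 14 were split from the 39 on these same values, and no test applies.

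The other barcodes found in all 8 populations give a scale for the macrophage levels, without a test. M1 macrophages were above M2 macrophages in 36 of 53 lineage-balanced, 42 of 43 myeloid-rich and 1 of 61 lymphoid-rich barcodes, with median log2 ratios of 1.11, 2.34 and -2.46. Their summed share of M2 reads averaged 17.1% ± 7.30 in lineage-balanced, 9.45% ± 1.26 in myeloid-rich and 7.39% ± 2.46 in lymphoid-rich barcodes (SD, n = 3 mice each). In Ccr2lo macrophages the sums were 12.5% ± 6.44, 6.90% ± 3.23 and 8.74% ± 3.39. In mouse 2 the lineage-balanced barcodes owed 7.79% of M2 and 4.31% of Ccr2lo reads to bc2a alone.

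Several members of a mouse had levels that ran in parallel, so members cannot be counted as independent. When 2 members were joined if the log2 ratio of their shares had an SD under 0.4 over the 8 populations, a limit chosen after the values were seen, 19 of 466 within-mouse pairs met it. The 53 members then formed 39 profiles, 9 of them joining 23 members. In mouse 2, bc2c, bc2d and bc2e held 3.45%, 3.51% and 3.18% of M1 reads. Their levels were 5.77%, 4.74% and 4.96% in B cells and 1.31%, 1.15% and 1.18% in T cells. The 3 sequences printed above differ from each other at 21 to 26 of 52 positions. In mouse 1, bc1g was 1.20 to 1.54 times bc1i in all 8 populations, and these 2 differ at 23 positions. The closest pair was bc2h and bc2i of mouse 2, whose ratio stayed between 0.938 and 1.11 (SD of the log2 ratio 0.0882) although the sequences differ at 28 positions. Whether parallel barcodes share a founder was not tested.

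Near the limits of the rule, the values were as follows. The member nearest the 4-fold limit was 3.51-fold apart in mouse 1, 3.97-fold in mouse 2 and 3.76-fold in mouse 3, and the nearest barcode outside was 4.12-fold, 4.53-fold and 4.12-fold apart. The one outside in mouse 2 was bc3l, a member in mouse 3. The lowest share of any member was 0.0112%, 0.0127% and 0.0110% in the 3 mice, and the nearest excluded barcode that was otherwise balanced had 0.00282%, 0.00704% and 0.00114% in its lowest population. The lowest peak share of a member was 0.127%, 0.457% and 0.221%. Below 0.1% everywhere, 1, 1 and 2 further sequences met the remaining criteria, the highest of them at 0.0238%, 0.0199% and 0.0245%, and in each mouse that sequence was a member of another mouse (bc2a in mice 1 and 3, bc1c in mouse 2).

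The sequences themselves did not set the members apart. Of 53, 48 followed the alternation throughout (90.6%, and 90.6% of all 1064), and 5 broke it at 1 position, each with T in place of G or C (bc2a at position 13, bc2h at 5, bc2s at 49, bc3e at 29 and bc3i at 35, counted from the 5′ end). Among all 1064 barcodes 95 broke it at 1 position, 86 of them in the same way. G filled 55.0% of the G or C positions in members and 55.0% in all barcodes that kept the alternation, and A filled 47.8% and 46.1% of the A or T positions. The nearest other barcode at 0.1% in the same mouse differed from a member at 13 to 18 of its 52 positions.

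All 53 members were also read in mice other than their own. The highest share there was under 1% of the member's own highest share in 47 of 53, with a median over the 53 of 0.228%. The lowest share of a member in its own mouse was 1.79% or more of its highest share. These ranges overlap, because the share in another mouse reached 85.4% of the own highest share in bc3l and 27.2% in bc1r. The largest share in another mouse belonged to bc3l. In its own mouse it held 0.125% of M1, 0.0678% of Ccr2hi, 0.334% of Ccr2lo, 0.0229% of M2, 0.107% of monocyte and 0.0705% of neutrophil reads, and was at 0.0364% in B cells and 0.0110% in T cells. Mouse 3 counts as its own because bc3l met the rule only there. In mouse 1 it was higher than in mouse 3 in M1 (0.137%), M2 (0.0490%), monocytes (0.169%), neutrophils (0.0912%), T cells (0.0249%) and Ccr2hi macrophages. It was lower in Ccr2lo macrophages and B cells. It was at 0.01% or more in all 8 populations of mouse 1, with up to 0.220% in Ccr2hi macrophages, and of mouse 2, with up to 0.285% in Ccr2lo macrophages. The next was bc1r, with up to 0.134% in neutrophils of mouse 2. How these sequences came to be in several mice was not tested.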

How the data were processed

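Members, lists and comparisons were chosen with earlier results of these data known. Each deposited file lists, per the file headers, the sequences of 52 bases seen in 1 sample and the raw read count of each. Trimming, filtering and counting tools are not given in the sources used here. Per the labels' protocols, barcodes were amplified in 18 PCR cycles and then 9 to 11 indexing cycles, without molecular identifiers.

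Shares are counts over the total of their sample (Python 3.11.15, numpy 2.4.6, pandas 2.3.3, scipy 1.17.1). Samples were grouped by the population and mouse number in their titles. Equal numbers were taken as the same animal, and the shared part of 2 samples (the smaller of each barcode's shares, summed) averaged 0.410 within a number and 0.0136 between numbers. Folds between populations used shares with 0.01% added, and over 4-fold was the limit. Single ratios printed for a named barcode have nothing added. Background shares are over barcodes that reached 0.1% in at least 1 population of their mouse. The barcodes named are, in each mouse, the 3 highest by mean share and those with the largest and smallest B over T ratio, the smallest and largest highest-over-lowest ratio and the largest tissue-over-blood ratio. Others named (bc1d, bc1e, bc1g, bc1i, bc1o, bc1p, bc1q, bc1u, bc2d, bc2e, bc2h, bc2i, bc2k, bc2m, bc2n, bc2r, bc2s, bc3i) were chosen after their values were seen. No test was used: each barcode has 1 sample per population. A share of reads falls when other barcodes take more reads, and fewer cells and fewer amplified copies cannot be told apart. The selection and merging code was tested on simulated data.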

Additional observations from a re-analysis of the deposited data

Results flagged for a closer look

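Of the 53 members, 20 reached 0.01% of reads in a sample of a mouse other than their own, 2 of them (bc1r and bc3l) at 0.1% or more. Reads of a member in another mouse enter no comparison of members between populations above. Where they met the limits in that mouse, they count among the 1064 barcodes (bc1r, bc3l) and the myeloid-rich ones (bc3l). Of the 848 such values, 112 were at 0.01% or more. Their median was 0.00265% and the highest was 0.285%. Of the 424 shares of members in their own mouse, 9 were under 0.02%, in 6 members, and 124 were at or below that highest value. Groups here hold 3 samples each, so single samples far from their group were not looked for.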

How the results depend on the processing

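No paired analysis was possible because the results come from no test: members were chosen mouse by mouse, and every ratio was taken within the mouse in which the barcode was chosen. The number of members per mouse (17.7), the reads they held in 8 populations and the percentage within 4-fold in 10 pairs of populations were recomputed with 2 other presence thresholds, merged sequences, equal depth, pattern sequences alone and each mouse left out. Other lineage limits and geometric means were run for the number of members alone, and a 2-fold limit and nothing added to shares for the pairs alone. Chosen after seeing the data were 1 member per joined profile, for the pairs, and joining limits of SD 0.3 and 0.5, for the number of profiles. Of 187 values, 11 moved, counts by over 1.5 times and percentages by more than the SD between mice, and 176 did not. With a mouse left out, a mean percentage cannot shift by as much as the SD between the mice. Those percentages were bound to be among the unmoved and say nothing of stability. A lineage limit of 2-fold left 9.0 members per mouse and a limit of 8-fold gave 28.7. With a limit of 2-fold between populations, the percentage within it was 16.2 for M1 over M2, 84.4 for M1 over monocytes, 34.6 for M2 over monocytes, 33.97 for Ccr2hi over monocytes and 21.8 for Ccr2lo over monocytes. It was 77.2 for Ccr2lo over M2, 33.2 for Ccr2lo over B cells, 90.4 for monocytes over neutrophils and 23.4 for B over T cells.

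Leaving out each mouse in turn gave 16 to 20.5 members per mouse. The share of reads held ranged from 37.1% to 44.8% in M1, 12.1% to 18.7% in Ccr2hi, 8.88% to 14.9% in Ccr2lo and 12.97% to 19.9% in M2 macrophages, and from 35.9% to 45.2% in monocytes, 35.8% to 45.2% in neutrophils, 29.6% to 37.7% in B cells and 16.2% to 25.8% in T cells. The percentage within 4-fold ranged from 53.6 to 71.1 for M1 over M2, 90.4 to 97.5 for M1 over monocytes, 73.8 to 85.5 for M2 over monocytes, 73.2 to 87.5 for Ccr2hi over monocytes and 54.2 to 75.8 for Ccr2lo over monocytes. It ranged from 95.8 to 100 for Ccr2hi over Ccr2lo and for Ccr2lo over M2, 66.1 to 77.5 for Ccr2lo over B cells, 97.6 to 100 for monocytes over neutrophils and 48.7 to 63.7 for B over T cells.

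Depth limits little here, since the lowest share of a member stood for at least 681 reads. The absence of replicate samples of a population from the same mouse limits every ratio, and shares near 0.01% lie within the range seen for barcodes of other mice.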
